A study of Bos taurus with 14 samples.

Results

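The annexins are a family of calcium-dependent phospholipid-binding proteins, and 10 annexin genes were measured in 14 bovine conceptuses collected on Day 15 of gestation. The members were all genes whose symbol in the annotation of the Affymetrix bovine array begins with ANXA, where a probe set carried that symbol alone. These were 10 of 9155 named genes and 14 of 24016 probe sets: ANXA1, ANXA2, ANXA3, ANXA4, ANXA5, ANXA6, ANXA8L1, ANXA10, ANXA11 and ANXA13. All 10 matched the RefSeq gene table of cattle by Entrez number, in which ANXA8 is a synonym of ANXA8L1; ANXA7 and ANXA9 were not analysed here. They were chosen by gene symbol, so no measured value entered the rule, but the family was put forward with results of these arrays known, so its differences describe the family and are not independent evidence about it.

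Each annexin has a conserved core of repeats that binds calcium and acidic phospholipids, above all phosphatidylserine, and a short or long amino-terminal tail that differs between members and carries the sites for partner proteins. The proteins gather on the inner face of the plasma membrane and on endosomes when calcium rises, and they take part in exocytosis, in the sealing of torn membranes and in linking membranes to actin. Several bind S100 proteins, which are small dimers, most of them calcium-binding. In the placenta annexins are best known through ANXA5, which covers exposed phosphatidylserine on trophoblast and so hinders coagulation there.

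The conceptuses were Holstein, sired by 1 Holstein bull, and the RNA of each, the embryo together with its membranes, was read on 1 array. Embryos flushed from superovulated donor cows on Day 6.5 were graded by morphology and placed in recipient Holstein heifers, 2 to 6 embryos of 1 grade in each, until Day 15. The Grade 1 conceptuses numbered 11, of which 5 were classed as long (1 male and 4 females), 5 as short (2 males and 3 females) and 1, a male, had no recorded length. The Grade 3 conceptuses numbered 3, with 2 males and 1 female. No conceptus received a drug or genetic change. Littermates and recipient mates are not marked in the labels, so the fits treat the conceptuses as independent. A p-value here judges a difference only against the spread between these conceptuses, and it may be too small where some are related. Because each array read a whole conceptus, fewer cells of a type and less RNA per cell cannot be told apart.

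All values are log2 expression values after robust multiarray averaging, a method that makes the arrays share 1 distribution. A difference of 1 is therefore a doubling, and levels are compared only within a probe set. Array medians lay between 5.62 and 5.716 and arrays correlated with one another at 0.9838 to 0.9967 over probe sets. Grade 1 short replicate 5 and Grade 1 long replicate 2 were the arrays least like the others. Grade 1 short replicate 1 carries both lengths in its labels and was counted as short, the choice that gives the stated 5 and 5. Some trophoblast markers gave strong signal: the keratin KRT18 averaged 14.47 in long and 14.46 in short conceptuses, and the pregnancy signal IFNT2 averaged 14.58 and 14.48. These are bright examples from 9 measured markers, near the highest value of the scale, 14.61. The keratin KRT8 averaged 6.06 and 6.20 and the transcription factor ELF5 6.49 and 6.68. A gene with several probe sets is represented by the one with the highest mean, and a gene is said to have risen or fallen where limma's adjusted p over all 24016 probe sets was under 0.05.

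**Figure D1:**
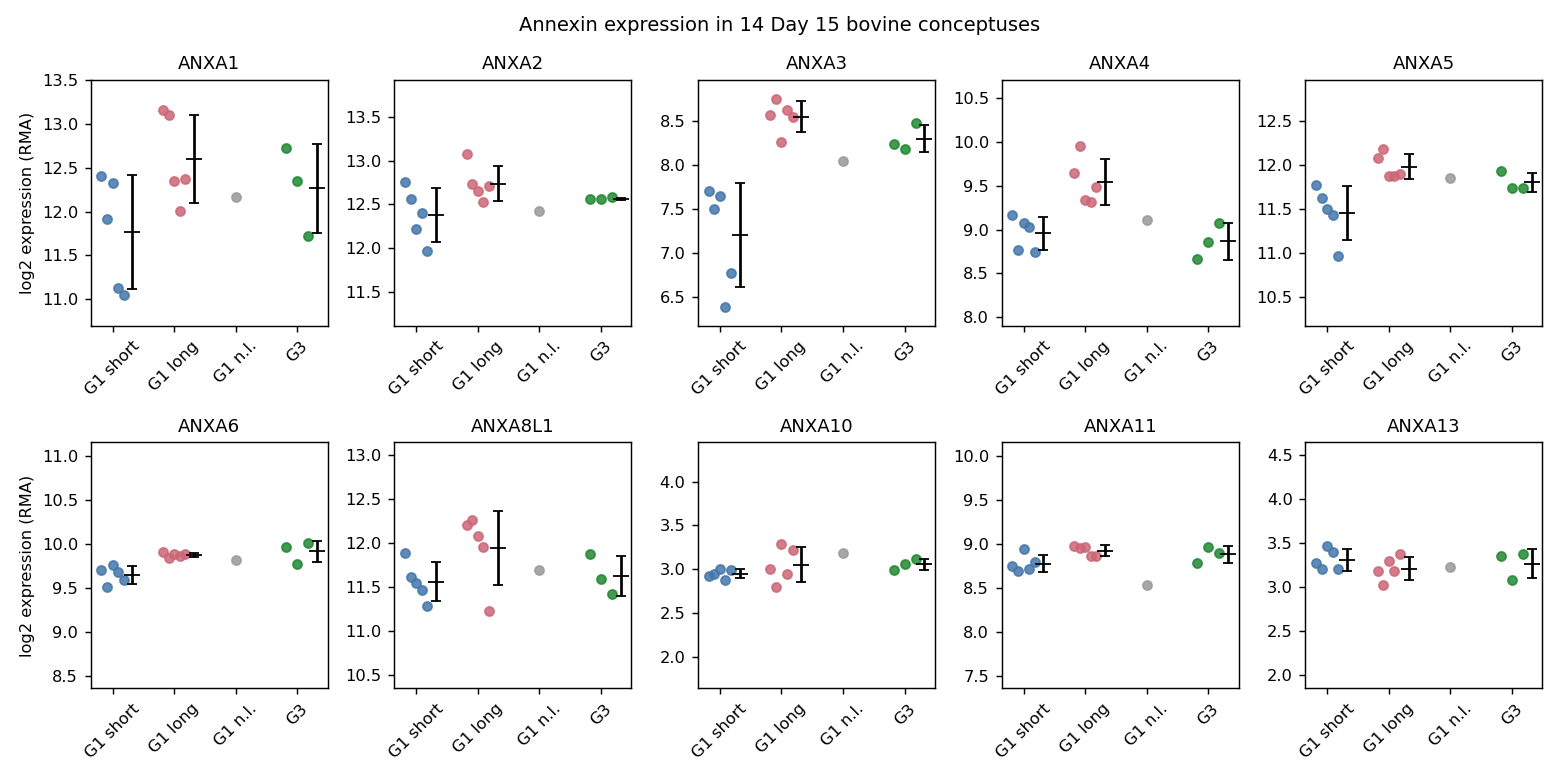
The log2 expression value (vertical axis, every panel spanning the same range) of each annexin gene in each conceptus, by group: Grade 1 short (G1 short), Grade 1 long (G1 long), Grade 1 with no recorded length (G1 n.l.) and Grade 3 (G3); the bar beside each group is the mean ± SD. The long conceptuses lie above all short ones for ANXA3, ANXA4, ANXA5 and ANXA6, while the groups overlap for the other 6 genes.

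The first comparison set long beside short conceptuses within Grade 1. Of the 10 annexin genes, 4 rose in long conceptuses and 0 fell: ANXA3 by 2.55 fold, ANXA4 by 1.5 fold, ANXA5 by 1.43 fold and ANXA6 by 1.17 fold, with 5 conceptuses in each group. Over all 9155 named genes, 3.27% rose and 6.24% fell in the same fit, 9.5% in either direction. The named genes include dim ones, whereas 8 of the 10 annexins averaged at least 5, so these shares are not matched for brightness. An unadjusted p under 0.05 was reached by 7 of the 10 annexins, against 28.9% of all genes in either direction. The same 4 genes were those whose long and short values did not overlap, against 3.58% of all genes with every long value above every short one. The median difference over the 10 annexins was 0.37, beside -0.03 over all named genes, and 9 of 10 were higher on average in long conceptuses, where 41.2% of all genes were. The count of 4 fell to 1 without long replicate 1 or short replicates 4 or 5, to 2 without any of long replicates 2 to 5 or short replicate 2, and to 2 with the conceptus of conflicting labels counted as long.

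ANXA3, an annexin known mainly from phagocytes and from epithelial tumours, differed most. Its values were 8.57, 8.76, 8.27, 8.63 and 8.55 in long replicates 1 to 5 and 7.71, 7.50, 7.65, 6.39 and 6.77 in short replicates 1 to 5. The lowest long value lay above the highest short one, and the short group was the more spread, with replicates 4 and 5 well below the rest. The means were 8.56 ± 0.18 and 7.21 ± 0.59 (SD, n = 5 each), a difference of 1.35 ± 0.23 (SE) with a limma adjusted p of 0.0126. It passed in all 10 fits with 1 conceptus left out, with differences of 1.15 to 1.48.

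ANXA4 is an annexin of secretory epithelia that gathers on apical membranes and granules. It measured 9.64, 9.95, 9.34, 9.31 and 9.48 in long replicates 1 to 5, and 9.16, 8.77, 9.07, 9.03 and 8.75 in short replicates 1 to 5. The groups did not overlap, although long replicates 3 and 4 lay close to the highest short value. The means were 9.54 ± 0.26 and 8.96 ± 0.19 (SD, n = 5 each), a difference of 0.59 ± 0.13 (SE, limma adjusted p = 0.0257). The call was lost without long replicates 1 or 5 or short replicates 4 or 5, where limma's adjusted p was 0.0613, 0.0555, 0.0566 and 0.0598 and the differences 0.56, 0.60, 0.61 and 0.54.

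ANXA5, the phosphatidylserine-binding annexin of trophoblast surfaces, was read by 4 probe sets. On the brightest one long replicates 1 to 5 measured 12.08, 12.18, 11.87, 11.87 and 11.90, and short replicates 1 to 5 measured 11.77, 11.62, 11.50, 11.43 and 10.96. The groups did not overlap, but the gap between the lowest long and the highest short conceptus was small beside the spread. The difference was 0.52 ± 0.13 (SE, limma adjusted p = 0.043). The next brightest probe set gave 0.64 ± 0.13 (SE, limma adjusted p = 0.0198), again with no overlap, and its means were 10.41 ± 0.14 and 9.77 ± 0.29 for the long and the short group (SD, n = 5 each). The other 2 ANXA5 probe sets averaged 4.05 and 3.24 over the 14 arrays, near the low end of a scale whose lowest value was 2.235, and differed by -0.10 and -0.05 without passing. With 1 conceptus left out, the brightest probe set kept its call only without short replicate 1, with limma adjusted p up to 0.104, and the next brightest kept it in 8 of 10 fits.

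ANXA6, which carries a duplicated annexin core and links cholesterol-rich membranes with the cytoskeleton, showed a small and tight difference. Long replicates 1 to 5 measured 9.91, 9.85, 9.89, 9.87 and 9.89, and short replicates 1 to 5 measured 9.71, 9.51, 9.77, 9.68 and 9.59. The long conceptuses were nearly identical, and all lay above the short ones. The means were 9.88 ± 0.02 and 9.65 ± 0.10 (SD, n = 5 each), a difference of 0.23 ± 0.06 (SE, limma adjusted p = 0.049). With 1 conceptus left out the gene passed only without short replicate 3, with limma adjusted p up to 0.108, and it also missed the threshold with arrays centred on their medians (0.0586).

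**Figure D2:**
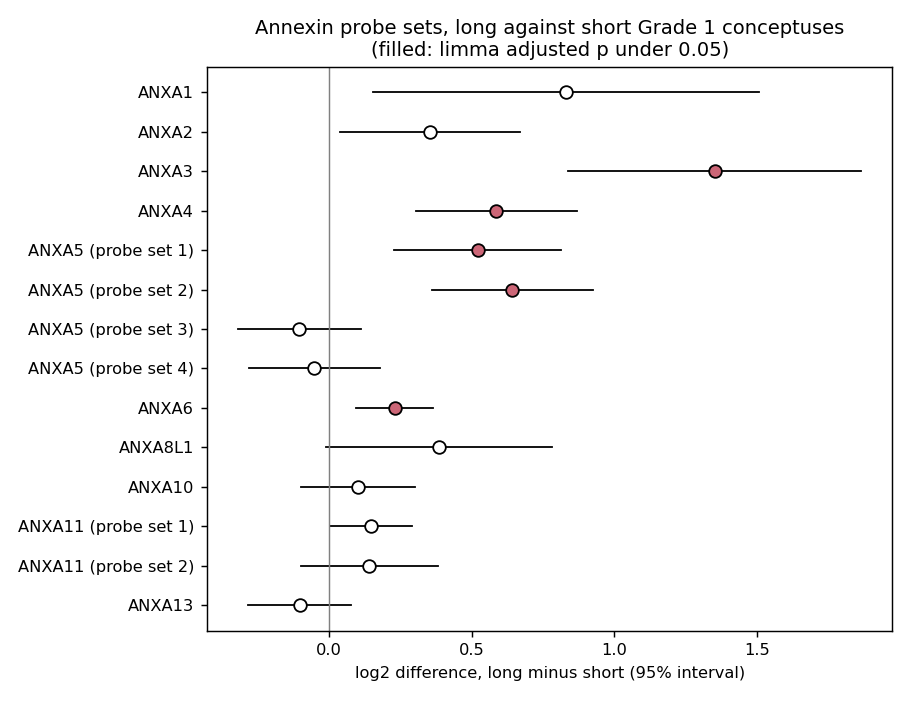
The log2 difference of long minus short Grade 1 conceptuses (horizontal axis) for all 14 annexin probe sets, with the 95% interval from limma; filled points passed at an adjusted p under 0.05. The 5 filled points are ANXA3 at 1.35, ANXA4 at 0.59, 2 probe sets of ANXA5 at 0.52 and 0.64, and ANXA6 at 0.23.

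The 2 annexins with the best known S100 partners did not pass. ANXA1, which is induced by glucocorticoids, restrains phospholipase A2 and signals through formyl peptide receptors, measured 13.15, 13.10, 12.35, 12.01 and 12.37 in long replicates 1 to 5. In short replicates 1 to 5 it measured 12.41, 11.91, 12.33, 11.13 and 11.05. Long replicates 1 and 2 were high and short replicates 4 and 5 low, and the other conceptuses overlapped. The difference was 0.83 with a 95% interval of 0.15 to 1.51 (limma adjusted p = 0.137).

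ANXA2, which forms a tetramer with S100A10, binds plasminogen at the cell surface and anchors membrane to actin, measured 13.07, 12.73, 12.65, 12.53 and 12.71 in long replicates 1 to 5. Short replicates 1 to 5 measured 12.76, 12.56, 12.22, 12.40 and 11.97. Only long replicate 1 lay above every short conceptus. The difference was 0.35 with a 95% interval of 0.04 to 0.67 (limma adjusted p = 0.175).

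In the length fit with sex as a covariate, the male minus female difference was 0.67 ± 0.29 (SE) for ANXA1, 0.45 ± 0.10 for ANXA2, 0.41 ± 0.24 for ANXA3 and 0.29 ± 0.13 for ANXA5. None of the 10 annexins passed for sex; limma's adjusted p for these 4 was 0.391, 0.109, 0.525 and 0.398. In that fit the length difference was 0.96 for ANXA1 and 0.44 for ANXA2, and both passed (limma adjusted p = 0.0472 and 0.0153), together with ANXA3, ANXA4 and ANXA5. ANXA6 missed the threshold there (0.0534). More probe sets passed for length in general: of 24016, 963 rose and 1440 fell, against 648 and 929 without sex in the fit. The long group held 1 male and the short group 2, so each sex difference rests on few animals.

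ANXA8L1, the cattle gene of the endosomal annexin A8, measured 12.20, 12.26, 12.08, 11.95 and 11.23 in long replicates 1 to 5 against 11.89, 11.61, 11.54, 11.47 and 11.28 in short replicates 1 to 5. Long replicate 5 was lower than every short conceptus, while the other 4 long conceptuses were higher than all of them. The difference was 0.39 with a 95% interval of -0.01 to 0.78 (limma adjusted p = 0.243). Without long replicate 5 it was 0.56 and passed (limma adjusted p = 0.0436).

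ANXA11, an annexin with a long disordered tail that tethers RNA granules to lysosomes, differed little. Its brighter probe set ran from 8.86 to 8.98 in long and from 8.69 to 8.94 in short conceptuses, a difference of 0.15 (limma adjusted p = 0.215). The other probe set, which averaged 4.40, gave 0.14. ANXA10, known from gastric epithelium, and ANXA13, known from intestinal epithelium, stayed between 2.80 and 3.47 in all 14 conceptuses. Their differences were 0.10 and -0.10, and values this dim could hardly show one. By their means over the 14 arrays, 8 of the 10 annexins reached 5, the limit used for a filter on dim probe sets, and these 2 did not.

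Conceptuses differed in how their annexins stood together. Averaged over the 8 brighter annexins, long replicates 1 and 2 lay 0.45 and 0.47 above the mean of all 14 conceptuses, and long replicates 3 to 5 lay 0.12 to 0.18 above it. Short replicates 2 to 5 stood at -0.23, -0.12, -0.47 and -0.60 from it, and short replicate 1, whose labels disagree, at 0.02. The conceptus with no recorded length stood at -0.04 and the Grade 3 conceptuses at -0.01 to 0.09. The conceptuses that stood farthest on each side thus included both arrays least like the others, and without those 2 arrays none of the 10 annexins passed: the difference for ANXA3 was 1.19 (limma adjusted p = 0.0723) and for ANXA4 0.43 (0.0868).

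Sample titles share prefixes whose meaning the labels do not give, and 2 prefixes hold both lengths. Of the long and short conceptuses, the first held 2 long, replicates 1 and 2, and 1 short, replicate 2. Within it the long mean was higher by 1.16 for ANXA3, 1.02 for ANXA4, 0.51 for ANXA5 and 0.37 for ANXA6. Within the second, with 1 long and 2 short, it was higher by 1.24, 0.29, 0.40 and 0.17. The direction was the same in both, while the 2 values for ANXA4 and for ANXA6 lay farther apart. In each prefix 1 of the lengths was a single conceptus, and whether the sizes differ was not tested. With the prefix as a fixed block, where only these 6 conceptuses inform the contrast, none of the 10 annexins passed; the differences were 1.20, 0.66, 0.45 and 0.27 (limma adjusted p = 0.11, 0.128, 0.06 and 0.189).

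**Figure D3:**
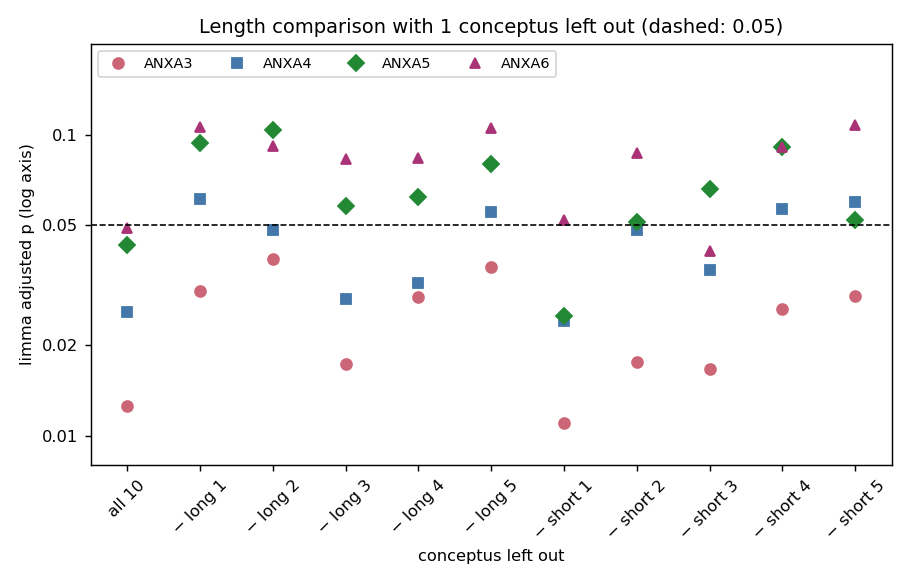
The limma adjusted p (vertical, log axis) of the 4 annexins that rose in long conceptuses, with all 10 conceptuses and with each of them left out in turn (horizontal axis); the dashed line is the threshold of 0.05. With 1 conceptus left out, ANXA3 stays under the line in all 10 fits, ANXA4 in 6 and ANXA5 and ANXA6 in 1 each.

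The expression pattern most like that of ANXA3 over the 14 conceptuses was that of the endoplasmic reticulum chaperone PDIA3 (r = 0.97), followed by the apolipoprotein APOA1 (r = 0.955) and ARL6IP5 (r = 0.941). The most opposed were GSDMC (r = -0.945), the splicing factor subunit SF3B3 (r = -0.944) and the replication origin protein ORC1 (r = -0.944). These r values were picked as extremes out of 9154 genes and share the same arrays and the same split by length, so they describe these 14 arrays only. With each group centred on its own mean, r was 0.942 for PDIA3, 0.85 for APOA1 and 0.771 for ARL6IP5. It was then -0.795 for GSDMC, -0.891 for SF3B3 and -0.828 for ORC1. For ANXA4 the nearest were DYNLT2B (r = 0.928), the tyrosylprotein sulfotransferase TPST1 (r = 0.921) and the beta-catenin inhibitor CTNNBIP1 (r = 0.911). The most opposed were TOP1, MYLIP and DDX52 (r = -0.897, -0.877 and -0.872). Centred by group, r was 0.818, 0.796 and 0.843 for the nearest and -0.79, -0.617 and -0.745 for the most opposed. Among the 8 brighter annexins, the closest pairs were ANXA1 with ANXA5 (r = 0.856), ANXA3 with ANXA5 (0.852) and ANXA2 with ANXA5 (0.847). With groups centred these were 0.79, 0.605 and 0.809, while ANXA5 with ANXA11 had -0.128.

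Genes related to annexins or to the processes in which they take part were taken from 6 lists, chosen with earlier results of these data known. Of the 92 genes listed, 65 were measured. In long conceptuses 10 rose and 0 fell, with a median difference of 0.06 over the 65, beside 3.27% of all genes that rose, 6.24% that fell and a median of -0.03. The count of 10 fell to 4 without long replicates 1, 2 or 5, to 5 without short replicates 4 or 5, to 2 with the conceptus of conflicting labels counted as long, to 1 without both arrays least like the others and to 0 when title prefixes entered as a fixed block. Of the 15 genes measured from the list of S100 and calcium-binding partners, 3 rose: S100A10, S100A11 and S100B. S100A10, the ANXA2 partner, measured 13.21, 13.25, 12.77, 12.75 and 12.83 in long replicates 1 to 5 and 12.61, 12.45, 12.46, 12.23 and 11.75 in short replicates 1 to 5, without overlap. Its difference was 0.66 ± 0.16 (SE, limma adjusted p = 0.0366), and its other probe set also passed, at 1.06.

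S100A11, which binds the ANXA1 tail, had the largest difference of the 65. It measured 11.31, 11.65, 9.57, 9.74 and 10.28 in long replicates 1 to 5 and 8.83, 9.40, 8.95, 7.90 and 7.23 in short replicates 1 to 5. Long replicates 1 and 2, which share a title prefix, stood well above the other long conceptuses, as they did for ANXA1. The groups did not overlap. The difference was 2.05 ± 0.48 (SE, limma adjusted p = 0.0321). With conceptuses left out in turn, S100A10 and S100A11 each still passed 5 times out of 10. Their limma adjusted p reached 0.0909 without long replicate 2 for S100A10 and 0.078 without short replicate 4 for S100A11. S100B rose by 0.41 (limma adjusted p = 0.0484), with overlapping groups, and still passed in 1 of the 10 fits, with limma adjusted p up to 0.11 without long replicate 2. The median over the 15 was 0.03.

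Of 22 genes of membrane repair and trafficking, 3 rose and 0 fell, with a median of 0.06. The ferlin MYOF rose by 0.99 ± 0.18 (SE), the calpain subunit CAPN2 by 1.02 ± 0.17 and the vesicle SNARE VAMP7 by 0.54 ± 0.09 (limma adjusted p = 0.0143, 0.0105 and 0.0102). All 3 kept the call with each conceptus left out, but with the conceptus of conflicting labels counted as long only CAPN2 did (limma adjusted p = 0.0318), and MYOF and VAMP7 did not (0.136 and 0.0689). MYOF ran from 11.04 to 11.53 in long and from 9.73 to 10.75 in short conceptuses, CAPN2 from 10.23 to 10.89 and 9.16 to 9.92, and VAMP7 from 7.97 to 8.40 and 7.56 to 7.74. None of these ranges overlapped.

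Of 10 genes that move or recognise phosphatidylserine, the lipid to which annexins bind, 2 rose and 0 fell, with a median of 0.16. PLSCR4, a member of the scramblase family, rose by 1.05 ± 0.16 (SE, limma adjusted p = 0.00937) and the flippase ATP8A1 by 0.41 ± 0.10 (0.041). PLSCR4 passed whichever conceptus was left out, but not with the conceptus of conflicting labels counted as long (limma adjusted p = 0.161), and ATP8A1 in 2 of these 10 fits, with limma adjusted p up to 0.0985 without long replicate 2. Outside the rule for named genes, and picked after their values were seen, PLSCR2 and the caveolin CAV2 of the repair list differed by as much as these, 1.00 and 1.05, with wider spread, and did not pass (limma adjusted p = 0.127 and 0.149).

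Of 12 genes of the submembrane actin network and lipid rafts, 2 rose and 0 fell: the spectrin SPTBN1 by 0.54 ± 0.11 (SE) and the membrane-actin linker moesin, MSN, by 0.35 ± 0.08 (limma adjusted p = 0.0207 and 0.0323). SPTBN1 still passed in 7 of the leave-one-out fits and MSN in 4, and without long replicate 2 limma's adjusted p was 0.0541 and 0.08. All 4 further probe sets of SPTBN1 were also higher in long conceptuses, and 1 of them passed. Of the 5 measured genes of the plasminogen system none passed, and their median was -0.17. The smallest p among them belonged to the urokinase receptor PLAUR, at -0.20 (limma adjusted p = 0.424). PLAUR was dim, with means of 4.76 in long and 4.96 in short conceptuses. Of the annexin receptor and phospholipase list 1 of 6 genes, the vascular endothelial growth factor receptor KDR, was measured, and it did not pass (-0.19, limma adjusted p = 0.43). KDR averaged 3.29 in long and 3.48 in short conceptuses, and values this dim could hardly show a difference.

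**Figure D4:**
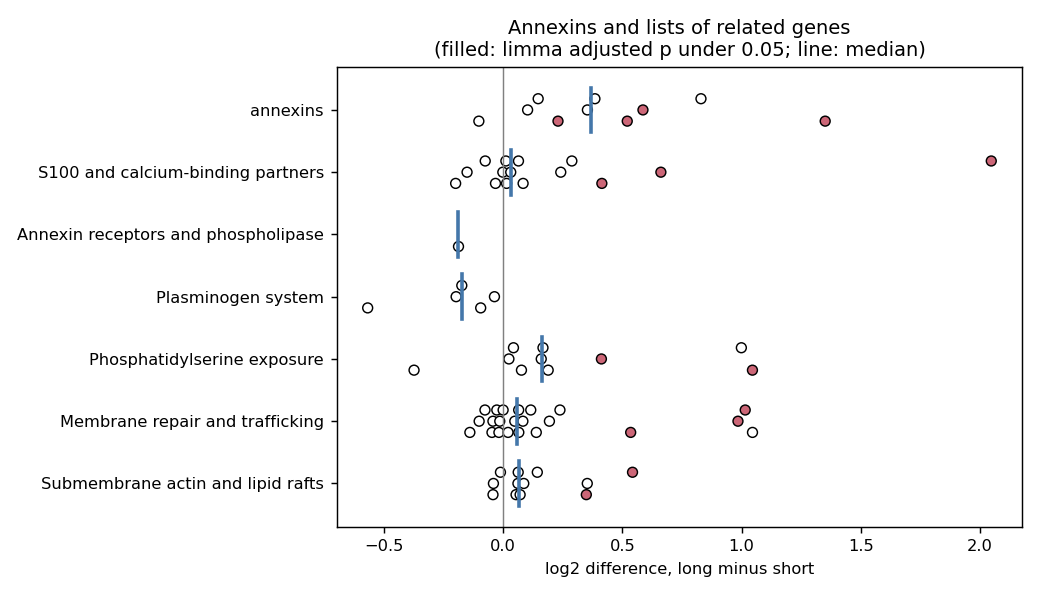
The log2 difference of long minus short Grade 1 conceptuses (horizontal axis) for the 10 annexins and for the measured genes of each of 6 lists of related genes; each point is a gene, filled where limma's adjusted p was under 0.05, and the line is the median. The annexins have a median of 0.37, and the list medians lie between -0.19 and 0.16. The -0.19 is the value of KDR alone, a dim gene and the only gene measured in its list.

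Markers of the cell types a conceptus could hold were measured beside these genes. Mean marker levels of trophectoderm (9 of 13 markers measured) ran from 11.05 to 11.18 in long and 10.95 to 11.18 in short conceptuses, with the transcription factor TFAP2A higher by 0.38 and ASCL2 at -0.49, both past the threshold. Hypoblast markers (6 of 8 measured) ran from 7.60 to 7.77 in long and 7.30 to 7.64 in short conceptuses. Of these, 2 rose, the retinol carrier RBP4 by 1.30 and APOA1 by 0.59. The rest were lower in long conceptuses without passing: GATA4 at -0.11, GATA6 at -0.18, TTR at -0.11 and AFP at -0.16. TTR averaged 3.51 in long and 3.62 in short conceptuses and AFP 3.91 and 4.065, and values this dim could hardly show a difference. The median over the 6, those dim genes included, was -0.11. The part of hypoblast in the annexin differences was not tested. Endometrial markers (8 of 8 measured) ran from 4.25 to 4.45 and 4.20 to 4.52, blood and immune markers (8 of 10) from 4.63 to 4.91 and 4.82 to 5.12, erythroid markers (7 of 8) from 3.81 to 3.91 and 3.82 to 3.99, and endothelial markers (8 of 8) from 4.07 to 4.20 and 4.10 to 4.16, in long and short conceptuses. In the blood list CD8A fell by 0.84, and in the endothelial list PECAM1 rose by 0.99 and SOX18 fell by 0.84. The most that passed in any of these lists was 2, out of 9 trophectoderm, 6 hypoblast and 8 endothelial markers. Of all named genes 9.5% passed in either direction. Only 2 endometrial, 1 erythroid and 1 endothelial marker averaged at least 5, and the dimmer ones could hardly show a difference. Mesoderm rested on 2 of 6 markers, HAND1 at 1.59 and SNAI1 at -0.78, neither of which passed (limma adjusted p = 0.0745 and 0.051).

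The second comparison set conceptuses from Grade 3 embryos, the poorer morphology, beside those from Grade 1. No title prefix holds both grades, so no comparison within a prefix could be made; the 3 Grade 3 conceptuses come from 2 prefixes, and with the prefix as a random block 0 annexins passed as well. None of the 10 annexins passed between 3 Grade 3 and 11 Grade 1 conceptuses in limma, at an adjusted p of 0.999 for each, and 0 of 10 had an unadjusted p under 0.05. Over all genes 0 of 9155 (0%) passed, and 4.05% had an unadjusted p under 0.05. The largest differences were 0.41 for ANXA3, with a 95% interval of -0.47 to 1.29, and -0.37 for ANXA4, with an interval of -0.80 to 0.05. The Grade 1 group spans both lengths, and its SD for ANXA3 was 0.78 (n = 11) against 0.15 (n = 3) in Grade 3.

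Grade 3 conceptuses were therefore also set beside each length class, in comparisons that use the same 3 Grade 3 arrays. For ANXA3 they measured 8.24, 8.19 and 8.48 in replicates 1 to 3, inside or just under the long range and above every short value. The difference was -0.25 (95% interval -0.51 to 0.01) from long and 1.10 (0.45 to 1.75) from short conceptuses, and neither passed (limma adjusted p = 0.505 and 0.485). For ANXA4 they measured 8.66, 8.86 and 9.08, under every long value and overlapping the short ones. The difference was -0.68 (95% interval -1.02 to -0.33) from long and -0.09 (-0.38 to 0.20) from short conceptuses (limma adjusted p = 0.277 and 0.864). The order of the means was thus long, Grade 3, short for ANXA3 and long, short, Grade 3 for ANXA4; whether the 2 genes differ in this was not tested.

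ANXA6 measured 9.97, 9.78 and 10.01 in Grade 3, above every short conceptus and around the long ones, at 0.04 (95% interval -0.12 to 0.19) from long and 0.27 (0.07 to 0.47) from short (limma adjusted p = 0.885 and 0.539). ANXA5 measured 11.93, 11.74 and 11.74 on its brightest probe set, the first inside the long range and the others inside the short range. Its mean of 11.80 lay between those of the 2 lengths, at -0.18 from long and 0.34 from short (limma adjusted p = 0.567 and 0.594). Its next brightest probe set measured 10.06, 9.89 and 10.07 in Grade 3, below every long value, at -0.40 from long (limma adjusted p = 0.277). ANXA2 was almost the same in all 3 Grade 3 conceptuses, with 12.56, 12.56 and 12.58. ANXA1 ran from 11.72 to 12.72 and ANXA8L1 from 11.42 to 11.87, each overlapping both lengths. Among the related genes 0 of 65 passed in any comparison with Grade 3. The 3 Grade 3 values were 12.80, 12.49 and 12.69 for S100A10 and 9.68, 9.22 and 9.40 for S100A11, which overlapped both lengths, while MYOF lay at 10.97 to 11.14, above every short conceptus.

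In all, 0 of 10 annexins passed in limma against either length class, as did 0 of all genes (0%). Against long conceptuses 1 annexin had an unadjusted p under 0.05, where 11.1% of all genes did, and 1, ANXA4, had no overlap in the lower direction, where 3.41% did. Against short conceptuses 2 annexins had an unadjusted p under 0.05, where 9.8% of genes did, and 2, ANXA3 and ANXA6, had no overlap in the higher direction, where 2.45% did. The conceptus with no recorded length stood at 8.05 for ANXA3, 9.11 for ANXA4, 11.85 for ANXA5 and 9.82 for ANXA6, between the highest short and lowest long value for ANXA3, ANXA5 and ANXA6 and among the short values for ANXA4.

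**Figure D5:**
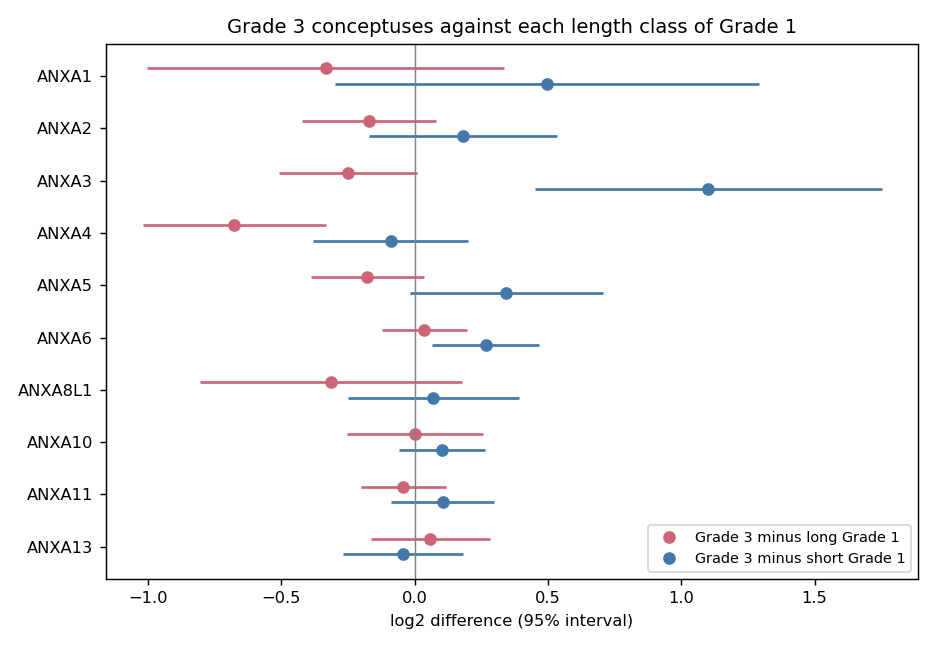
The log2 difference (horizontal axis) of Grade 3 minus long and Grade 3 minus short Grade 1 conceptuses for the 10 annexin genes, each with the 95% interval from limma; both use the same 3 Grade 3 arrays. ANXA3 lies at 1.10 from short and -0.25 from long conceptuses, and ANXA4 at -0.09 and -0.68.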

How the data were processed

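RNA of 14 conceptuses was read on 1 bovine Affymetrix array each, from 250 ng of total RNA per the labels' protocols. The deposited values are log2 expression per probe set; the submitters' processing notes name RMA and Affymetrix Expression Console, without versions. Whether all arrays were normalised in 1 run is not given in the sources used here. Quantile normalisation removes a shift common to all genes, and the summary compresses differences at low intensity. The 112 control probe sets were left out of 24128, and symbols came from the platform annotation (13292 probe sets with 1 symbol, 86 with several, 10638 with none). RefSeq assembly ARS-UCD2.0 was used for names only. Precision is limited by the number of arrays.

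Comparisons used limma 3.58.1 in R 4.3.3 (lmFit, eBayes; two-sided; Benjamini-Hochberg over 24016 probe sets; threshold 0.05): long against short (5 and 5), Grade 3 against Grade 1 (3 and 11), and Grade 3 against each length. The grade comparison is stated with 4 unnamed Grade 1 conceptuses, so all 11 were used. The fit was tested on simulated data in which 200 of 24016 probe sets were shifted by 1.25, 1.5, 2 or 3 fold: 22%, 70%, 98% and 98% were called for length, and 28%, 78%, 98% and 100% for grade. False calls made up 4% and 5% of the calls. The 200 were divided evenly among the shifts. The simulated noise was drawn independently for each probe set, without effects shared by an array, a title prefix or a sex. These rates therefore need not hold for the measured arrays.

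Named were all annexins, the related genes that passed for length (where none did, the one with the smallest p), and the 3 genes most and least correlated with the 2 called annexins of largest difference. The members, lists and tests were chosen with earlier results of these data known. The gene lists were: S100 and calcium-binding partners; annexin receptors and phospholipase; plasminogen system; phosphatidylserine exposure; membrane repair and trafficking; submembrane actin and lipid rafts. The alternatives left out each conceptus, filtered dim probe sets (mean under 5), centred or re-normalised arrays, added sex or the title prefix, shared the spread over all groups, let eBayes follow intensity, averaged probe sets of a gene, and moved or left out the conceptuses with disputed or no length. Leaving out the 2 least similar arrays was added after seeing the data.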

Additional observations from a re-analysis of the deposited data

How the results depend on the processing

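In the length comparison 4 annexins passed, and 3 to 5 did with the dim-probe filter, centred arrays, repeated quantile normalisation, sex as covariate, 1 fit over all groups, intensity trend, averaged probe sets and the title prefix as a random block. With averaging ANXA5 lost its call (0.25, limma adjusted p = 0.0612). Its mean then included 2 dim probe sets, and their part in the lost call was not tested. With 1 conceptus left out, 1 to 3 annexins, 4 to 9 of the related genes (10 with all conceptuses) and 460 to 1697 of all probe sets (1577 with all) passed. With the prefix as a fixed block these were 0, 0 and 112, with the disputed conceptus as long 2, 2 and 492, and without the 2 least similar arrays, chosen after seeing the data, 0, 1 and 145. Sex as a covariate gave 2403 probe sets. ANXA3 and ANXA5 were the annexins that passed with the disputed conceptus as long, and ANXA4 and ANXA6 then had limma adjusted p = 0.0551 and 0.108; the cause was not tested. Over all probe sets, 648 rose and 929 fell, which repeated quantile normalisation turned to 742 and 725, the disputed conceptus as long to 270 and 222, and the fixed block to 64 and 48. No annexin changed sign in any of the length settings. In the grade comparison 0 annexins passed in each setting, with 0 to 2 probe sets when 1 conceptus was left out, and against long conceptuses 0 to 6. Over the grade comparisons 26 alternative values of single annexins changed sign, all of them uncalled. Replicate numbers were given here in accession order and pair no samples; the block used title prefixes shared by both lengths, and no prefix holds both grades. Dim probe sets (ANXA10, ANXA13, 2 of ANXA5, 1 of ANXA11) could hardly show a difference.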
